A study of Mus musculus with 2 samples.

Results

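The S100 family comprises small calcium-binding proteins, and 10 S100 genes were described here across the cells of a mouse pancreatic tumour: S100a1, S100a4, S100a6, S100a8, S100a9, S100a10, S100a11, S100a13, S100a14 and S100g. They were chosen by symbol from the 32285 genes listed in the count matrices, which hold 7 further S100 genes. Droplet single-cell RNA sequencing covered 2 libraries of tumours from KPPC mice, a genetically engineered model of pancreatic ductal cancer. Per the labels, mice of 6 weeks received vehicle in 1 group and takinib at 50 mg/kg in the other, for 14 days; takinib inhibits the kinase TAK1, which activates NF-kB and AP-1. Each group is 1 library, the number of mice in it is not given in the labels, and both groups carry the KPPC alleles, which the labels do not spell out. No test between groups was therefore possible, no p-value is given, and no difference below has a replicate check.

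S100 proteins bind calcium through EF hands, mostly as dimers, and then dock onto partners such as annexins and myosin. Some are also released from cells and act on receptors including TLR4 and RAGE. S100a8 and S100a9 pair to form calprotectin, the main cytosolic protein complex of neutrophils, which is also made by monocytes. S100a4 is known from motile leukocytes and mesenchymal cells, S100a6, S100a10 and S100a11 from epithelium and many other cells, S100a14 from epithelium, and S100g, the vitamin D-dependent calbindin, from the calcium-absorbing gut.

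On GRCm38, with GENCODE M21 gene models, 9 of the 10 genes lie on chromosome 3. S100a8 (ENSMUSG00000056054, 90668978 to 90670035, plus strand) and S100a9 (ENSMUSG00000056071, 90692632 to 90695721, minus strand) lie close together. S100g lies on chromosome X (162961992 to 162964599, minus strand) and overlaps Ctps2 on the other strand, and S100a4 overlaps Gm42674 on its own strand, so reads of these overlapping models may not be separable. The promoter windows of S100a8 and S100a9, from 250 bases before to 50 after the RefSeq start on GRCm38.p6, are shown because these genes had the largest ratios between libraries and were higher in the same classes. Capitals mark the TATA box letters TATAAA, which open 30 bases before the start in S100a8 and at the annotated start in S100a9, and the C/EBP letters TTGCNNAA in S100a9.
S100a8, chr3:90668821-90669120, plus strand: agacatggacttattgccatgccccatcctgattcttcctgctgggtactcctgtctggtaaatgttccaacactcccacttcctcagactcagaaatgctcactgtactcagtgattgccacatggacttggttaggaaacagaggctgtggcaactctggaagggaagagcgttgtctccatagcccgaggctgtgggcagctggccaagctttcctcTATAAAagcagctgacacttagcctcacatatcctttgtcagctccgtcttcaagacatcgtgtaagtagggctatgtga
S100a9, chr3:90695672-90695971, minus strand: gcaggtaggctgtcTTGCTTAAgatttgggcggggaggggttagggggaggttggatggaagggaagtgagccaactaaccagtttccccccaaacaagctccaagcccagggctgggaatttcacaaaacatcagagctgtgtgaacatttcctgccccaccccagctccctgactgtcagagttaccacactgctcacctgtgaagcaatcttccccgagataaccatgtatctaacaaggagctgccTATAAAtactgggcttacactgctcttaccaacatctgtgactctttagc
Of 8 members with a window in the RefSeq table (not S100a10 and S100a14), 4 held TATAAA on either strand (S100a4, S100a8, S100a9 and S100g), against 13.6% of all 32851 windows. TTGCNNAA was in S100a9 and S100g and in 10.8% of all windows, and the AP-1 letters TGANTCA were in S100a11 alone and in 7.81% of all. A 10-letter NF-kB motif was in none of the 8 windows and in 0.411% of all. The Ets/PU.1 letters AGAGGAAGT were in S100a4 and in 1.00% of all. The matches do not overlap, and a match is only a description of the window.

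The libraries differed in depth, mitochondrial share and cell make-up, and with 1 library per group these cannot be told apart from the treatment. After filters and doublet removal 9558 vehicle cells (median 3556 UMIs, 8.70% mitochondrial) and 25183 takinib cells (median 2887 UMIs, 1.79% mitochondrial) were kept, and 400 barcodes past the filters occurred in both libraries. The vehicle library held 1075 cells with Xist and no Y-linked UMI and 3087 cells with Y-linked UMIs and no Xist, whereas no Y-linked UMI occurred in takinib. Clusters named from markers, with S100 genes left out of both steps, gave 7 classes that had 100 cells or more in both: neutrophil-like (269 vehicle and 11998 takinib cells), macrophage-like (4938 and 4043), dendritic-like (127 and 117), T-like (244 and 865), B-like (204 and 658), epithelial-like (1187 and 785) and fibroblast-like (643 and 312). A cluster led by Tff2, Dmbt1 and Reg1 (555 and 1067 cells) carried 10 of 10 epithelial markers but also the acinar gene Ctrb1, and is called the Tff2 cluster. Of 25 clusters 4 stayed unnamed, among them cluster 3, led by U90926, Saa3 and F13a1, with 4 vehicle and 2500 takinib cells. As a check of the names, 11 of 11 macrophage markers and 10 of 10 epithelial markers were detected in at least 10% of their cells in each library, as against 5 of 8 neutrophil markers in vehicle neutrophil-like cells. Dendritic-like cells had 4 of 8 in vehicle and 7 of 8 in takinib, with 1 marker at 0 in each.

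Levels are in CPM, counts per 1000000 UMIs of a class and library, with exact Poisson 95% intervals in square brackets for levels and exact binomial intervals for folds, both covering counting error only. The call for a gene as higher or lower in takinib needed 50 counts in either library and a log2 ratio beyond 1, computed with 10 CPM added to both levels. By that rule 21 of the 58 member and class pairs with enough counts, of 70 in all, were higher in takinib and 1 was lower. Neutrophil-like cells had 4 members higher, 1 lower and 10 counted, where 4.44% of all counted genes were higher and 14.8% lower. Fibroblast-like cells had 4 of 8 higher (4.75% of all genes; 6.20% lower) and epithelial-like cells 4 of 10 higher (2.94%; 2.17% lower). B-like cells had 3 of 7 higher (4.95%; 1.49% lower). Macrophage-like cells had 2 of 9 (1.40%; 0.987% lower), T-like cells 2 of 7 (3.71%; 2.02% lower), dendritic-like cells 2 of 7 (5.34%; 2.67% lower) and the Tff2 cluster 3 of 10 (3.47%; 0.935% lower). S100a8 and S100a9 account for 14 of the 21 pairs in the 7 named classes. Since the vehicle library mixed cells with Xist and cells with Y-linked RNA, the ratios were also taken against vehicle cells with Xist alone, which left 3 classes. S100a8 was then at 242 CPM in vehicle macrophage-like cells, 41.5 CPM in epithelial-like and 23.9 CPM in fibroblast-like cells, and 13 pairs were higher in takinib, with S100a4 in macrophage-like (log2 ratio 1.19) and epithelial-like cells (1.60) and S100a6 in macrophage-like cells among them.

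**Figure D1:**
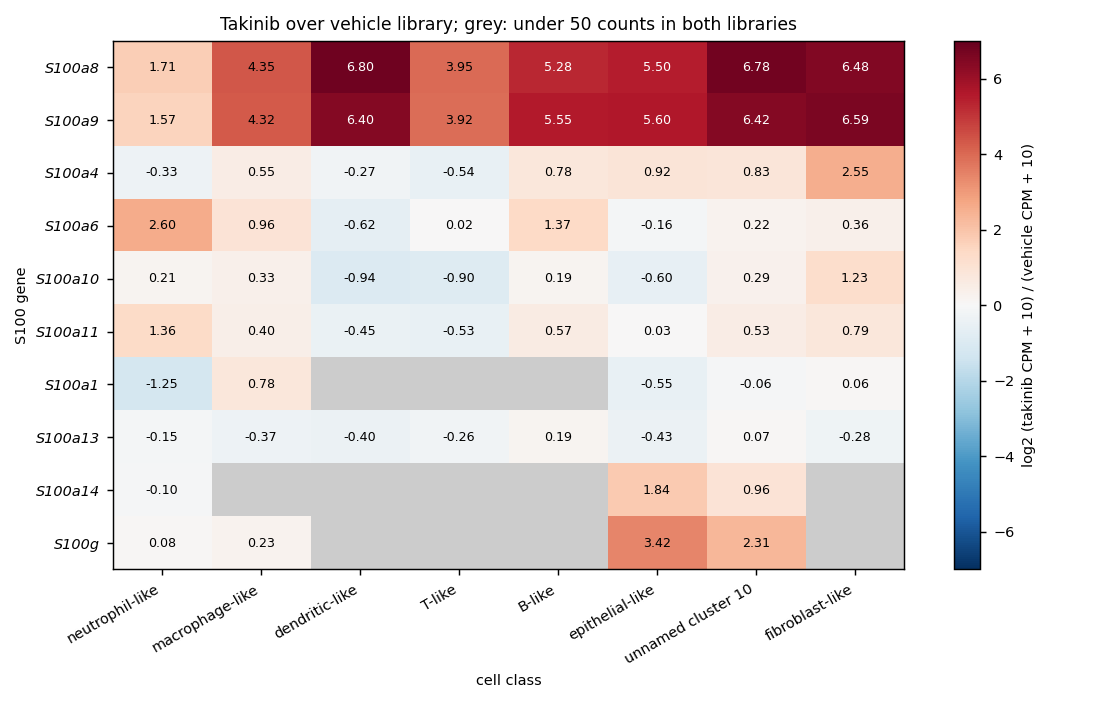
Log2 ratio of takinib over vehicle (10 CPM added to each) for the 10 S100 genes in the 7 compared classes and the Tff2 cluster, 1 library per group. S100a8 and S100a9 are above 1 in every column, from 1.57 to 6.80, while S100a6 and S100a11 pass 1 in neutrophil-like cells, S100a6 in B-like cells, and S100a4 and S100a10 in fibroblast-like cells.

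S100a8 and S100a9 were highest in neutrophil-type cells of both libraries and were higher in takinib in each class compared. In immature neutrophil-like cells, which carry the granule genes Camp, Ngp and Ltf, S100a8 stood at 146599 CPM in 619 takinib cells and at 146036 CPM in the 11 vehicle cells, and S100a9 at 116021 and 118190 CPM. These few vehicle cells and the 619 takinib cells thus had nearly the same levels. The 11 vehicle cells held 37.4% of all S100a8 UMIs of the vehicle library, and the 269 neutrophil-like cells a further 35.1%. In takinib the immature neutrophil-like class held 23.1% and the neutrophil-like class 59.8%.

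In neutrophil-like cells S100a8 was at 18029 CPM for vehicle and 58834 CPM for takinib, a 3.26-fold difference [3.18, 3.35], and S100a9 at 18719 and 55422 CPM, a 2.96-fold difference [2.89, 3.03]. The intervals lie apart for both genes. Almost all vehicle neutrophil-like cells lay in 1 cluster, in which Cxcr2 and Retnlg lead after the hormone genes Ppy and Ghrl, each found in under 1% of its cells (0.751% and 0.600%). That cluster held 268 vehicle and 3063 takinib cells, and there a list of 13 neutrophil genes, free of S100 genes, was at 5702 CPM for vehicle and 18549 CPM for takinib, 3.25-fold higher [3.11, 3.40]. Per count of that list, S100a8 was at 3.17 counts in vehicle and 3.46 in takinib (1.09-fold [1.06, 1.12]), and S100a9 at 3.29 and 3.12 (0.949-fold [0.926, 0.973]). The list itself differed in make-up: over all neutrophil-like cells Retnlg was at 763 and 5471 CPM and Stfa2l1 at 95.7 and 2042 CPM, whereas Csf3r was at 649 and 807 CPM, Cxcr2 at 455 and 391 CPM and Mmp9 at 1516 and 557 CPM. Retnlg had a UMI in 6.72% of vehicle and 75.6% of takinib cells of the cluster. Over the whole class the summed S100a8 and S100a9 counts per list count were 6.45 for vehicle and 9.43 for takinib, so the ratio near 1 holds for the shared cluster and not for the class. Vehicle neutrophil-like cells had a median of 1210 UMIs and 14.3% mitochondrial UMIs, against 1806.5 UMIs and 0.940% in takinib; the part of these values in the level difference was not tested.

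**Figure D2:**
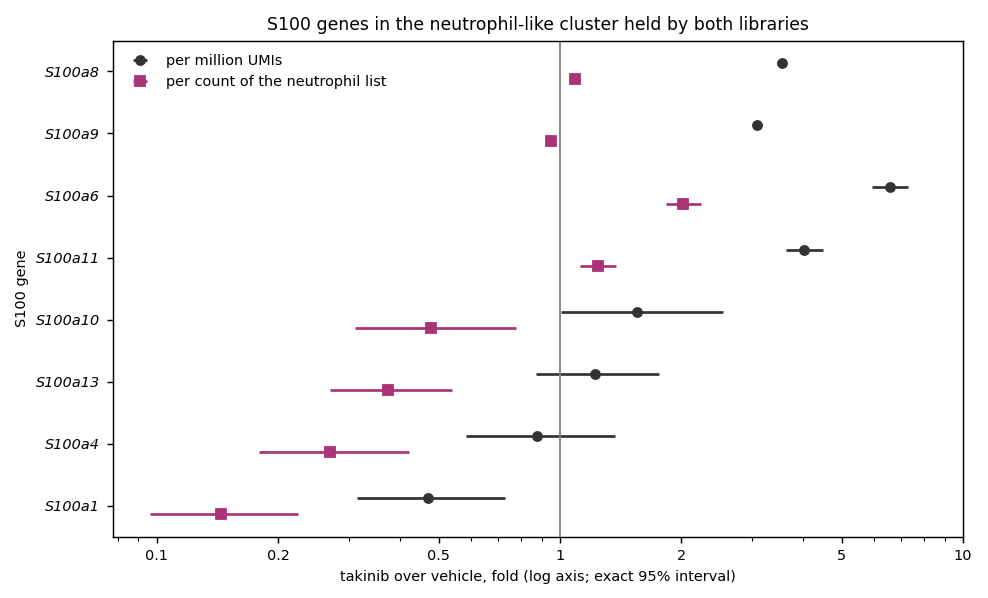
Takinib over vehicle fold with exact 95% intervals for 8 S100 genes in the neutrophil-like cluster held by both libraries (268 and 3063 cells), in CPM (circles) and per count of 13 neutrophil genes (squares), on a log axis. S100a8 and S100a9 lie at 1.09 and 0.949 on the second scale, whose list differs in make-up between the libraries, and S100a6 at 2.02.

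The other neutrophil-like clusters were almost wholly of the takinib library. The cluster led by Ccl4, Ccl3 and Acod1 (5089 cells) had S100a8 at 60598 CPM, and the cluster led by Lst1 and Lcn2 (3846 cells) at 50022 CPM, against 64088 CPM in the takinib cells of the shared cluster. Per list count S100a8 was at 4.93 and 8.21 in these clusters, above the 3.46 of the shared cluster.

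Outside neutrophils both genes had low vehicle levels and takinib levels above 1000 CPM. In macrophage-like cells S100a8 was at 167 CPM for vehicle and 3614 CPM for takinib, 21.6-fold higher [20.9, 22.3], and S100a9 at 143 and 3055 CPM, 21.3-fold higher [20.5, 22.1]. The epithelial-like class had 52.9 and 2830 CPM of S100a8, fibroblast-like cells 43.0 and 4705 CPM, and dendritic-like cells 18.1 and 3124 CPM. T-like cells had 101 and 1712 CPM, B-like cells 37.8 and 1853 CPM, and the Tff2 cluster 40.9 and 5567 CPM. No interval of the vehicle library met that of takinib in these classes. Within the epithelial-like class, the Cdkn2a cluster held by both libraries had S100a8 at 41.4 and 1016 CPM, 24.6-fold higher [21.7, 27.8]. Epithelial-like clusters led by Prap1 and by Gkn2, with no vehicle cell, held 7085 and 6109 of the 19160 takinib S100a8 counts of that class. Vehicle barcodes of 1 to 100 UMIs, which hold mostly free RNA, carried S100a8 at 330 CPM [287, 377] and S100a9 at 247 CPM [210, 288], so the vehicle levels of all these classes were below that of the near-empty barcodes. They were not spread evenly, since 61 of 4938 vehicle macrophage-like cells had at least 10 S100a8 UMIs and held 70.4% of the counts (highest cell 448), and 6 epithelial-like cells held 64.7% (highest 102). The takinib matrix holds no barcode under 500 UMIs, so the same level is not known there.

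**Figure D3:**
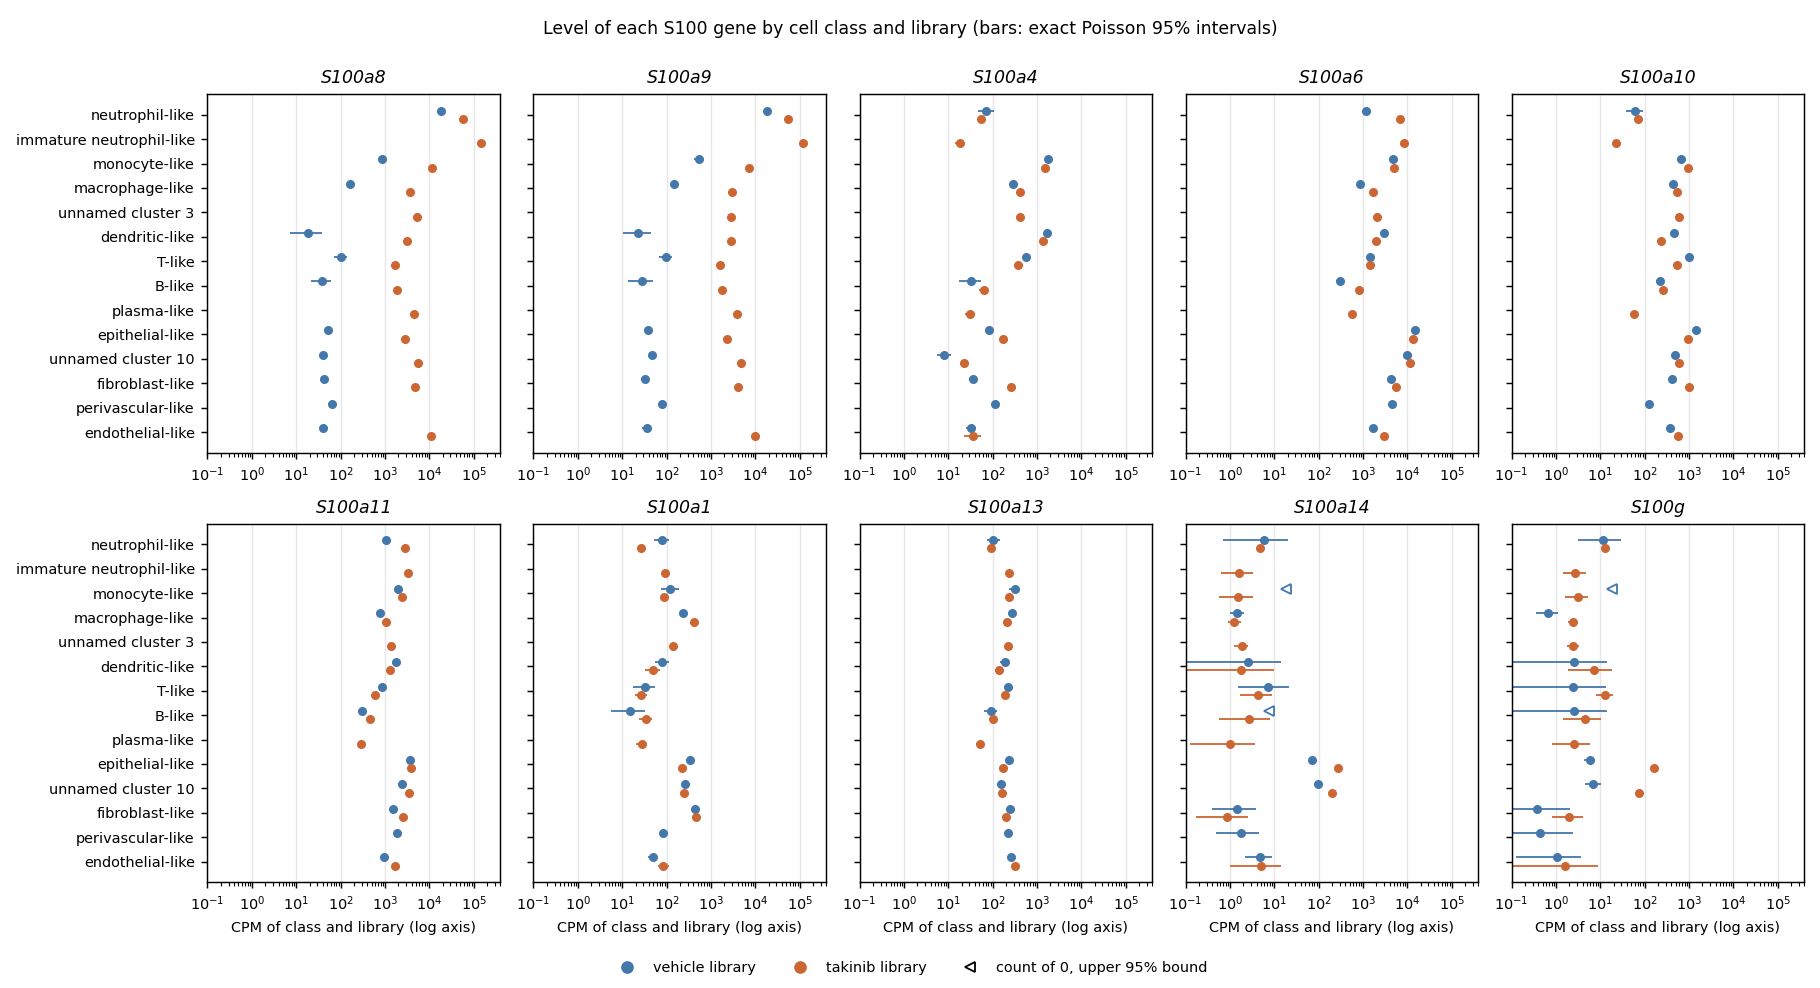
CPM of each S100 gene (log axis) by cell class, vehicle in blue and takinib in orange, with exact Poisson 95% intervals, for sums of at least 50 cells. S100a8 and S100a9 separate by library in each class with both libraries, whereas S100a13 and S100a11 do not separate by more than 2.58-fold in any class compared.

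The neutrophil list was higher in takinib beside these levels. Its sum in macrophage-like cells was 121 CPM for vehicle and 841 CPM for takinib. The sums were 71.1 and 848 CPM for the epithelial-like class, 70.7 and 1185 CPM for the fibroblast-like class, and 91.5 and 401 CPM for the T-like class. All 13 genes of the list were detected in takinib in each of these classes. Subtracting the takinib neutrophil-like profile, scaled to the list, removed more calprotectin than these takinib classes held: as a share of the level, the S100a8 remainder was -13.0% for the macrophage-like class, -22.2% for fibroblast-like cells, -45.4% for the epithelial-like class and -55.9% for the Tff2 cluster. No share of the S100a8 or S100a9 level was therefore assigned from it. In the vehicle Tff2 cluster 66.6 of the 95.5 CPM of the list were Ltf alone. In takinib Ltf was at 466 of the 1788 CPM there and at 132 of the 848 CPM in the epithelial-like class. Takinib neutrophil-like cells had only 43.5 CPM of Ltf. In vehicle epithelial-like cells Cd177 made up 46.8 of the 71.1 CPM. The make-up of the list in these epithelial groups thus differed from that in neutrophil-like cells. The part of free RNA, doublets or expression by the cells themselves was not tested.

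**Figure D4:**
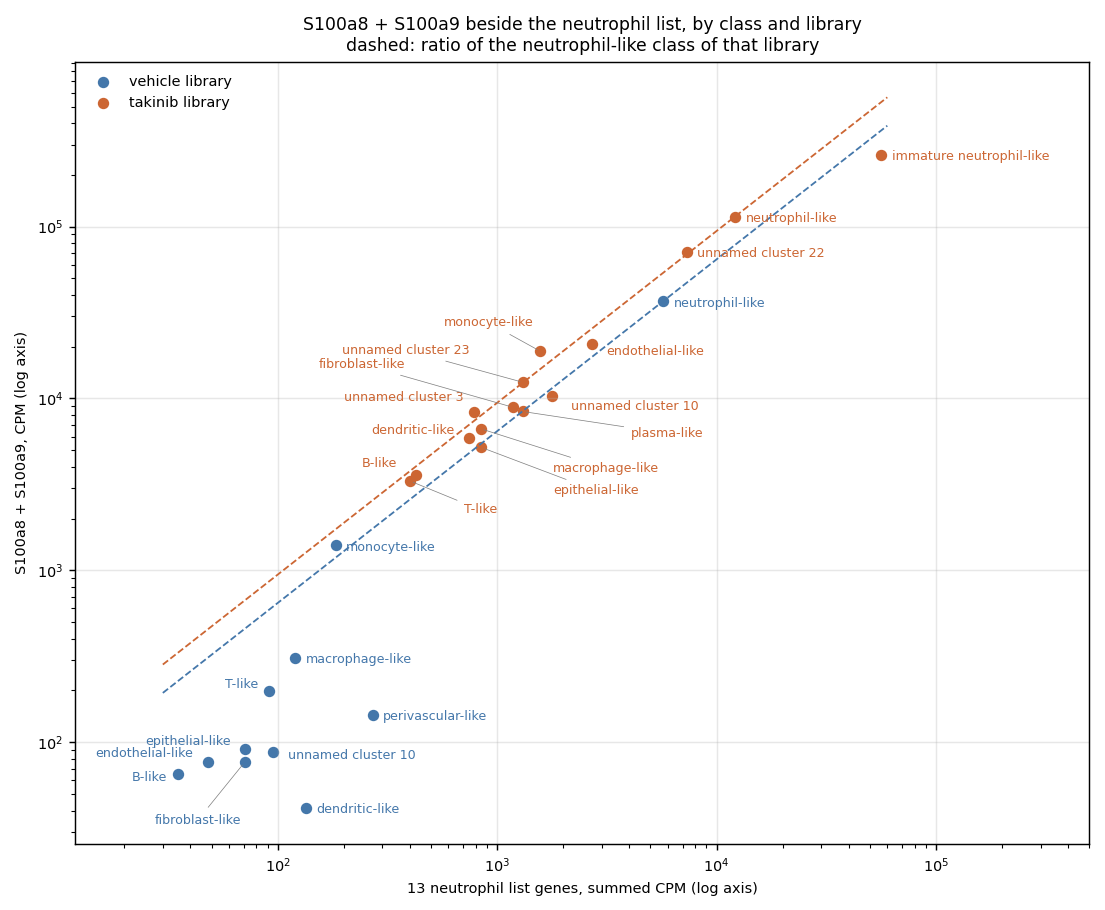
Summed CPM of S100a8 and S100a9 against the summed CPM of 13 neutrophil genes on log axes, 1 point per class and library of at least 50 cells, with dashed lines at the ratio of each library's neutrophil-like class. Takinib T-like (401 CPM of the list) and B-like cells lie near their line, the Tff2 cluster and immature neutrophil-like cells under it, and monocyte-like cells and cluster 3 above it.

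Monocyte-like cells, marked by Vcan, Ccr2 and Ly6c2, had S100a8 at 869 CPM in 74 vehicle cells and 11604 CPM in 779 takinib cells, and takinib cells of cluster 3 had 5420 CPM. The count ratio of S100a9 to S100a8 was 0.942 in takinib neutrophil-like cells, 0.791 in immature neutrophil-like cells, 0.621 [0.612, 0.630] in monocyte-like cells and 0.533 [0.528, 0.539] in cluster 3. In vehicle it was 1.04 [1.00, 1.08] in neutrophil-like and 0.606 [0.458, 0.797] in monocyte-like cells. The vehicle monocyte-like ratio rests on few cells, which its interval does not cover. Of the 74 cells, 1 held 90.7% of the 86 S100a9 counts and 3 held 91.5% of the 142 S100a8 counts. Among the other takinib classes, T-like cells (0.934), B-like cells (0.946) and dendritic-like cells (0.897 [0.838, 0.960]) had intervals that hold the neutrophil-like value. Macrophage-like (0.845 [0.838, 0.853]), epithelial-like (0.834 [0.817, 0.852]) and fibroblast-like cells (0.887 [0.868, 0.907]) and the Tff2 cluster (0.869 [0.860, 0.878]) had intervals under it.

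**Figure D5:**
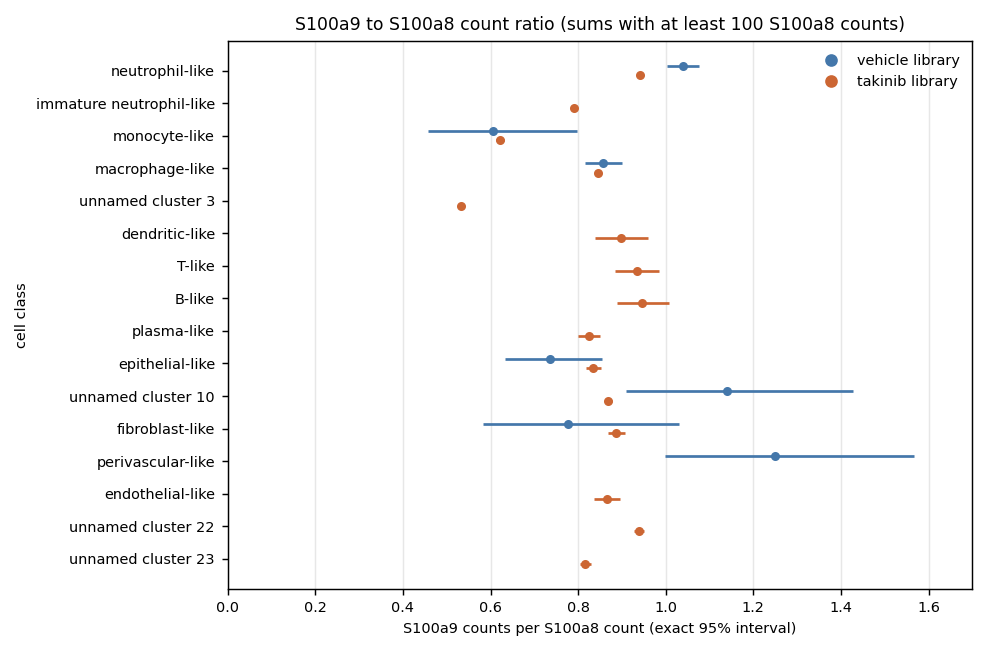
S100a9 counts per S100a8 count by class and library, with exact 95% intervals, for sums of at least 100 S100a8 counts. Monocyte-like cells of both libraries and cluster 3 lie between 0.533 and 0.621, while the takinib macrophage-like, epithelial-like and fibroblast-like classes lie from 0.834 to 0.887, under the takinib neutrophil-like value of 0.942. The vehicle monocyte-like value rests on few cells.

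Within macrophage-like cells the calprotectin genes differed by cluster. The cluster led by Gpnmb, Ctsk and Lpl, with 4 vehicle and 901 takinib cells, had S100a8 at 11127 CPM and held 87051 of the 102643 S100a8 counts of takinib macrophage-like cells; its neutrophil list stood at 2346 CPM. The other clusters had S100a8 at 109 and 793 CPM (led by H2-Ab1), 189 and 794 CPM (Gpnmb, Apoe and Ccl8) and 171 and 729 CPM (Chil3 and Ear2) in vehicle and takinib. Over these shared clusters alone the log2 ratio of S100a8 in macrophage-like cells was 2.34 rather than 4.35. The Chil3 cluster had a ratio of S100a9 to S100a8 of 0.674 [0.601, 0.756] in vehicle and 0.619 [0.598, 0.641] in takinib, with intervals that overlap those of monocyte-like cells.

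Counts were also spread unevenly over cells. With each cell thinned to 1000 UMIs, 55.1% of takinib macrophage-like cells had an S100a8 UMI against 6.08% in vehicle, and 99.4% of takinib neutrophil-like cells had one. Among the thinned cells, the top 10% of takinib macrophage-like cells held 67.1% of their S100a8 and S100a9 UMIs with a median of 1 per cell, and in B-like cells the top 10% held 41.1% with a median of 3. At full depth the shares of cells with an S100a8 UMI were 92.9%, 15.6% and 99.7%, and the top 10% of takinib macrophage-like cells held 70.2% of S100a8 UMIs.

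S100a6, or calcyclin, which binds annexins and the Cacybp protein, was highest in epithelial-like cells of both libraries and was higher in takinib neutrophil-like cells. Epithelial-like cells held 58.1% of its vehicle counts and 14.0% of its takinib counts, and neutrophil-like cells 0.197% and 30.9%. Epithelial-like cells had 14748 CPM for vehicle and 13188 CPM for takinib, and the epithelial-like cluster led by Cdkn2a had 17006 and 14748 CPM. Vehicle was the higher of each pair by a small margin. Neutrophil-like cells had 1142 CPM for vehicle and 6963 CPM for takinib, 6.1-fold higher [5.52, 6.75], and 43.5% of thinned vehicle cells had an S100a6 UMI against 92.5% in takinib (51.3% and 96.2% at full depth). Takinib neutrophil-like and immature neutrophil-like cells (8266 CPM) thus lay above fibroblast-like cells, at 4303 and 5535 CPM. In the shared neutrophil-like cluster S100a6 was still 2.02-fold higher [1.83, 2.24] per count of the neutrophil list. B-like cells had 303 and 800 CPM, 2.64-fold higher [2.18, 3.23]. Their neutrophil list was at 35.3 and 425 CPM. The call was lost with the neutrophil-like profile subtracted, at a log2 ratio of 0.93. Macrophage-like cells had 877 and 1711 CPM, a log2 ratio of 0.96 that missed the call. Against the 558 vehicle macrophage-like cells with Xist, at 669 CPM, it was 1.34. The vehicle neutrophil-like, B-like and macrophage-like levels of S100a6 lie under the 2322 CPM [2207, 2442] of the near-empty barcodes.

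S100a4, which binds non-muscle myosin and is also called fibroblast-specific protein, was highest in monocyte-like and dendritic-like cells. Monocyte-like cells had 1794 CPM for vehicle and 1546 CPM for takinib, dendritic-like cells 1690 and 1397 CPM, and T-like cells 556 and 379 CPM. Vehicle was higher in each, none passed the call, and 59.1% and 59.0% of thinned dendritic-like cells had an S100a4 UMI (73.2% and 72.6% at full depth). Fibroblast-like cells had 35.5 CPM for vehicle and 257 CPM for takinib, 7.22-fold higher [5.85, 9.01]. The vehicle value lies under the 132 CPM of the near-empty barcodes. Takinib fibroblast-like cells with at least 10 S100a4 UMIs numbered 21 of 312 and held 60.9% of its counts there, while no vehicle fibroblast-like cell reached 10. Among markers of other cells, the monocyte list was at 951 and 2218 CPM and the macrophage list at 2085 and 1390 CPM for vehicle and takinib fibroblast-like cells; their part in the S100a4 level was not tested. Epithelial-like cells had 84.9 and 169 CPM, a log2 ratio of 0.92 that missed the call; with each library clustered on its own the log2 ratio of S100a4 in epithelial-like cells was -1.26.

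S100a10, which carries annexin A2 to the cell surface and does not itself bind calcium, was higher in takinib fibroblast-like cells by the call and in no other class compared. Fibroblast-like cells had 412 CPM for vehicle and 982 CPM for takinib, 2.38-fold higher [2.23, 2.55]. T-like cells had 999 and 533 CPM and dendritic-like cells 462 and 236 CPM, log2 ratios of -0.90 and -0.94 that missed the call, and B-like cells had 224 and 257 CPM. S100a11, which binds annexin A1, was at 1082 and 2791 CPM in neutrophil-like cells, 2.58-fold higher [2.33, 2.86], and at 3718 and 3797 CPM in the epithelial-like class. Per count of the neutrophil list the S100a11 difference in the shared neutrophil cluster was 1.24-fold [1.12, 1.38].

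S100a1, best known from muscle, and S100a13, which takes part in the release of Fgf1 and Il1a, were found in all classes, mostly with small ratios. S100a1 was the only member lower in takinib by the call, in neutrophil-like cells at 78.3 and 27.0 CPM, from 27 vehicle counts. Both levels lie under the 158 CPM of S100a1 in the near-empty vehicle barcodes. In the shared neutrophil-like cluster its log2 ratio was -0.92, which missed the call. Fibroblast-like cells had 433 and 451 CPM, macrophage-like cells 239 and 417 CPM, epithelial-like cells 331 and 224 CPM, and the Tff2 cluster 257 and 246 CPM. S100a13 had log2 ratios from -0.43 to 0.19 over the compared classes, and levels from 90.8 CPM (B-like, vehicle) to 273 CPM (macrophage-like, vehicle).

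S100a14, an epithelial member, was highest in epithelial cells of both libraries. Epithelial-like cells had 70.8 CPM for vehicle and 280 CPM for takinib, 3.96-fold higher [3.60, 4.36], and the Tff2 cluster 98.5 and 201 CPM, a log2 ratio of 0.96 that missed the call. The Cdkn2a cluster alone had 68.8 and 320 CPM. With cells thinned to 1000 UMIs, the share of epithelial-like cells with an S100a14 UMI was 5.90% [4.63, 7.39] for vehicle and 10.8% [8.74, 13.2] for takinib (22.2% and 34.9% at full depth), and the call was lost at this depth, with a log2 ratio of 0.96. In the other named classes compared S100a14 was at no more than 7.42 CPM.

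S100g was higher in takinib epithelium, and its counts came from few cells. Epithelial-like cells had 5.83 CPM for vehicle and 160 CPM for takinib, 27.4-fold higher [20.4, 37.7], and the Tff2 cluster 7.04 and 74.4 CPM, 10.6-fold higher [7.18, 16.3]. Only 18 takinib cells, of 25183, had at least 10 S100g UMIs, yet they held 2050 UMIs, or 70.1% of the S100g of that library, and no vehicle cell had 10. In the Tff2 cluster 3 cells held 1006 of 1086 UMIs, and the thinned share of cells with a UMI was 0.541% in vehicle and 0.469% in takinib (2.88% and 5.81% at full depth, with medians of 5337 and 11749 UMIs). The takinib epithelial-like cluster led by the brush-border genes Prap1 and Alpi, with 82 cells and none of the vehicle library, had 1267 CPM. In the Cdkn2a cluster S100g was at 5.42 and 12.6 CPM. Over clusters held by both libraries the log2 ratio of S100g in epithelial-like cells was 0.55, and the call was lost.

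Across 26 class and library sums, which share 2 libraries and differ in depth, the genes closest to each member by Pearson r of log2 level were Retnlg for S100a8 and S100a9 (0.97 each), Anxa2 for S100a6 (0.91) and S100a11 (0.94), and Tmsb10 (0.84) and Ahnak (0.82) for S100a10. Psme2 (0.89) and Ccr2 (0.85) lay closest to S100a4 with Pot1b, Alpi (0.94) and Akp3 (0.92) to S100g, and Ncmap (0.98) to S100a14. These are descriptions of 26 points.

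Among known partners, Cd14, the co-receptor of TLR4, passed the call as higher in takinib in 6 of the 7 classes and in the Tff2 cluster, and no receptor gene was lower. It was at 331 CPM for vehicle and 3346 CPM for takinib neutrophil-like cells, where Ly96 and Bsg were higher too (3 of 9 receptor genes counted). Fibroblast-like cells had 37.0 and 329 CPM of Cd14 (1 of 6 receptor genes higher), dendritic-like cells 25.8 and 352 CPM (1 of 3) and the Tff2 cluster 87.4 and 412 CPM (1 of 6). In epithelial-like cells, at 83.4 and 307 CPM, T-like cells, at 17.3 and 48.8 CPM, and B-like cells, at 25.2 and 61.8 CPM, Emb passed the call beside Cd14 (2 of 7, 2 of 3 and 2 of 3). The macrophage-like class was the exception, with Cd14 at 294 and 525 CPM, a log2 ratio of 0.82, and Cd36 alone of 8 higher. Takinib neutrophil-like cells had the highest of these Cd14 levels, and the neutrophil list was higher in takinib in the other classes too. That list was at 35.3 and 425 CPM in B-like cells, 134 and 741 CPM in dendritic-like cells and 95.5 and 1788 CPM in the Tff2 cluster. The part of neutrophil RNA in the Cd14 levels was not tested. Of 7 annexin genes, 2 were higher in fibroblast-like cells, Anxa1 at 349 and 720 CPM and Anxa2 at 472 and 1066 CPM, the S100a11 and S100a10 partners. In neutrophil-like cells 1 was higher (Anxa2) and 1 lower (Anxa6), in the Tff2 cluster 1 was higher (Anxa1), and none was called in the other classes. Ahnak, a scaffold that binds S100a10, was at 247 and 551 CPM in macrophage-like cells. Of the 7 other S100 genes in the files, at most 2 had the 50 counts needed in any class (S100a16 and S100b), none had them in B-like, T-like or dendritic-like cells, and none was called. The median log2 ratio of the members that could be counted was 0.55 in macrophage-like, 1.01 in fibroblast-like and 0.15 in neutrophil-like cells, against 0.03, -0.08 and -0.36 over all counted genes there. It was also above that of all genes in B-like cells, epithelial-like cells and the Tff2 cluster. In T-like and dendritic-like cells it was below, at -0.26 and -0.40 against 0.001 and 0.08.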

How the data were processed

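The deposited matrices hold raw UMI counts per gene and barcode, made by the authors. Per the file headers the vehicle matrix came from Cell Ranger 4 and the takinib matrix from version 6.1.1, while the submitters' processing notes name Cell Ranger 2.1.1, STAR 2.0.4b, featureCounts 1.45 and mm10. The takinib barcodes were filtered before deposit (none under 500 UMIs) and the vehicle barcodes were not. Barcodes were kept with at least 1000 UMIs, 500 genes and at most 20% mitochondrial UMIs. Doublets were marked with Scrublet in scanpy 1.11.5: 314 were removed in vehicle by the automatic threshold, and in takinib, where it marked 0.00373%, the 6% with the highest scores, 1607, were removed. Both libraries were clustered together (2000 variable genes, 30 components, 15 neighbours, Leiden resolution 1, seed 1) without S100 genes and without correction between libraries, and 25 clusters were named from 21 marker lists. Counts were summed by class and library and scaled to CPM. The calculation was tested on simulated data. Members and lists were chosen with earlier results of these data known. All 10 members and the genes of the fixed lists could be named; others were the 3 closest by correlation. There was 1 library per group, so intervals cover counting error only. Sequences are from RefSeq GRCm38.p6.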

Additional observations from a re-analysis of the deposited data

How the results depend on the processing

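Under 16 planned settings and 1 chosen after seeing the data, no member called in a class changed direction, and 5 of the 22 calls held in every setting where their class could be compared, while 17 were lost in at least 1. With the neutrophil-like profile subtracted, levels below 0 were set to 0. The S100a8 and S100a9 log2 ratios outside neutrophil-like cells were then 0, so no change of direction could show for them. The 21 pairs higher in takinib became 10 with at least 2000 UMIs and 1000 genes and 10 with at most 10% mitochondrial UMIs (3 classes left to compare in each), 8 with the neutrophil-like profile subtracted, and 13 against vehicle cells with Xist (3 classes). The classes left in the Xist setting, macrophage-like, epithelial-like and fibroblast-like, held 2, 4 and 4 of the 21 pairs. The 13 pairs are thus more than these classes had before. The 1 pair lower became 0 with 50 CPM added, with the stricter UMI and mitochondrial limits, against vehicle cells with Xist and over shared clusters alone, 4 with each library clustered on its own, and 2 with S100 genes kept in the clustering or with cells carrying UMIs of the neutrophil list left out. That pair, S100a1 in neutrophil-like cells, also lost the call with ratios scaled to a median of 0, where S100a10 in dendritic-like cells passed it. The subtraction removed more S100a8 and S100a9 than most takinib classes held, so its count is no estimate of what neutrophil RNA leaves. The cause of these changes was not tested, except that fewer classes leave fewer pairs. S100a10 in fibroblast-like cells and S100a14 in epithelial-like cells lost the call on thinned cells, at 0.86 and 0.96. No paired analysis was possible because each group has 1 library. Depth limits S100a1, S100a14 and S100g most, each with few counts outside its main classes.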
